A study of Homo sapiens with 8 samples.

Results

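Cadherins and protocadherins were followed in aggregates of IGR-N91, a human neuroblastoma cell line from a stage 4 tumour. Every protein-coding row of the count table whose symbol was CDH with a number, or began with PCDH, was taken, and genes on chromosomes X and Y were left out. This gave 86 genes of 60676 rows: 23 CDH genes, 10 single protocadherins and 53 protocadherins of the clustered PCDHA, PCDHB and PCDHG families. Of the 86, 64 passed the filter on low counts and were tested. Of the 22 others, 4 (CDH4, CDH5, CDH13 and CDH17) had no read in any library and none had over 11 reads in any 1 library. Cells were grown as hanging drops in 1 of 4 media: control medium, in which no tissue had been cultured, medium conditioned by sympathetic ganglia of day 8 chick embryos (E8-cSGcm), by dorsal root ganglia of day 8 chick embryos (E8-cDRGcm), or by sympathetic ganglia of mouse embryos at stage E15.5 (E15.5-mSGcm). Each medium had 2 libraries. All groups are the same cell line, each conditioned medium came from pooled embryos, and nothing in the labels says that the 2 libraries came from separate cultures, so p-values measure the spread between these libraries only, which may be technical. Aggregates were collected after 20 h by the protocol and 24 h by the design text. In bulk RNA, fewer cells that make a transcript and less of it per cell cannot be told apart.

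Cadherins are calcium-dependent adhesion proteins. The classical cadherins (type I such as N-cadherin, and type II) hold neighbouring cells together by binding the same protein on the next cell, and pass the force to actin through catenins. Protocadherins lack the catenin-binding tail. The delta-protocadherins guide sorting and migration of neural cells, and the clustered protocadherins give single neurons a surface identity: each PCDHA or PCDHG transcript joins 1 of many variable first exons, each with its own promoter, to constant exons that the family shares. The C-type variable exons at the end of those clusters (PCDHAC and PCDHGC) are regulated apart from the alternate exons before them, and PCDHB genes are single exons.

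The promoter stretches below are shown because the clustered genes are read from 1 promoter each, and many of these promoters carry a short conserved element with a CGCT core. RefSeq promoters (250 bases before to 50 after the gene start, GRCh38.p14) were found for 67 of the 86 genes. The 7-letter words TGGCGCT and CGCTGTT were picked as words that many PCDHB and PCDHG promoters share, so their counts there describe and do not test. No counts of other words are given. On either strand, TGGCGCT was in 13 of 14 PCDHB promoters, in 3 of 20 PCDHG promoters, in none of the 13 PCDHA promoters and in 4.11% of all 27305 promoters. CGCTGTT was in 13 of 18 PCDHGA and PCDHGB promoters, in neither of the 2 PCDHGC promoters and in 2.29% of all promoters. The words share the letters CGCT but neither holds the other. Windows of 41 bases around the word, given on the gene's strand, follow for the 4 PCDHG genes with the lowest adjusted p in E15.5-mSGcm and the 4 PCDHB genes with the lowest adjusted p in E8-cDRGcm among those called whose promoter holds the word, and capitals mark the word. All lie on the + strand of chromosome 5, at chr5:141359920-141359960 (PCDHGB2), chr5:141387616-141387656 (PCDHGB4), chr5:141392567-141392607 (PCDHGA8), chr5:141402713-141402753 (PCDHGA9), chr5:141223259-141223299 (PCDHB14), chr5:141182306-141182346 (PCDHB16), chr5:141187070-141187110 (PCDHB9) and chr5:141208639-141208679 (PCDHB12).
PCDHGB2: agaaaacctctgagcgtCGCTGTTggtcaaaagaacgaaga
PCDHGB4: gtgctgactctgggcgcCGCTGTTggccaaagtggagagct
PCDHGA8: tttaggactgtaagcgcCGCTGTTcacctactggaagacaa
PCDHGA9: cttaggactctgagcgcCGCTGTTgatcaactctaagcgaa
PCDHB14: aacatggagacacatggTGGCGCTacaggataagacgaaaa
PCDHB16: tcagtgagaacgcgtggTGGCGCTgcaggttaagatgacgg
PCDHB9: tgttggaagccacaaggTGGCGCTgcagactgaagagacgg
PCDHB12: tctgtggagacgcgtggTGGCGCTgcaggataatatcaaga
The word starts between 48 and 74 bases before the RefSeq start in 7 of the 8, and 199 bases before it in PCDHGB2. A match is a run of letters, not a binding site.

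Libraries held 7930765 to 15060744 reads in genes. Both E15.5-mSGcm libraries were the shallowest, and a gene with no read there could still hold up to 3 reads, which is 0.384 CPM (reads scaled to a common library size). The E15.5-mSGcm libraries also held more reads of long non-coding RNA (2.93% and 2.99% against 1.5% and 1.65% in control, with 2.51% and 2.56% in E8-cDRGcm) and of mitochondrial genes (7.46% and 7.03% against 4.85% and 5.36%). Of 11 noradrenergic neuroblast markers, 10 had over 10 reads in their highest library and CHGA had none. TH had 116 and 138 reads in control and 9 and 9 in E15.5-mSGcm, and DBH 495 and 565 against 378 and 483. The defining glial gene SOX10 and the endothelial genes CLDN5 and EMCN had no read, while fibroblast genes such as COL1A1 and LUM were present in all libraries, with a summed level of 158 to 175 CPM in control, 194 to 223 CPM in the chick media and 162 to 175 CPM in E15.5-mSGcm. Within that list the parts moved apart: PDGFRA had 14 and 8 reads in control and 67 and 97 in E15.5-mSGcm, and COL1A1 had 1296 and 1716 against 249 and 249. Summed noradrenergic markers lay at 2881 to 2948 CPM in control, 2183 to 2313 in E8-cSGcm, 1703 to 1748 in E8-cDRGcm and 2085 to 2134 in E15.5-mSGcm, and 6 sensory neuron markers, mostly PRPH, at 270 to 280, 308 to 321, 377 to 381 and 187 to 195. Summed glial, endothelial and leukocyte markers were at most 2.05 CPM in any library. Their part in the results was not tested. All values below are CPM normalised for library composition, and a gene was called when its edgeR adjusted p was under 0.05 and its fold change at least 1.5. The 3 comparisons with control share the control libraries.

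N-cadherin had the highest level of the family in these cells. Levels were taken per kilobase of exon that no other gene shares on the same strand, as a mean over the 8 libraries. CDH2 stood at 53.1 CPM, followed by PCDH17 at 46.1, PCDHGC3 at 25.6, CDH11 at 16.9, CDH12 at 16.7, PCDH7 at 13.4, PCDH18 at 12.5 and CDH24 at 9.90. PCDH10 at 7.34 and CDH7 at 3.32 came lower in the order, with clustered genes between them. CDH11 and CDH12 lay closer together than either gene's own spread over the libraries. At the other end, E-cadherin (CDH1) stood at 0.0851 CPM per kilobase, P-cadherin (CDH3) had 17 reads in all 8 libraries, and the endothelial cadherin CDH5 and the GPI-anchored CDH13 had none. The protocadherin partners LRP6 and NLGN2 and the neuroblast marker CHGA also had no read in any library. Whether such zeros mean that a gene is silent was not tested. PCDHAC1 at 8.04 CPM per kilobase was highest in PCDHA and PCDHB4 at 5.93 in PCDHB, both named here after their values were seen.

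**Figure D1:**
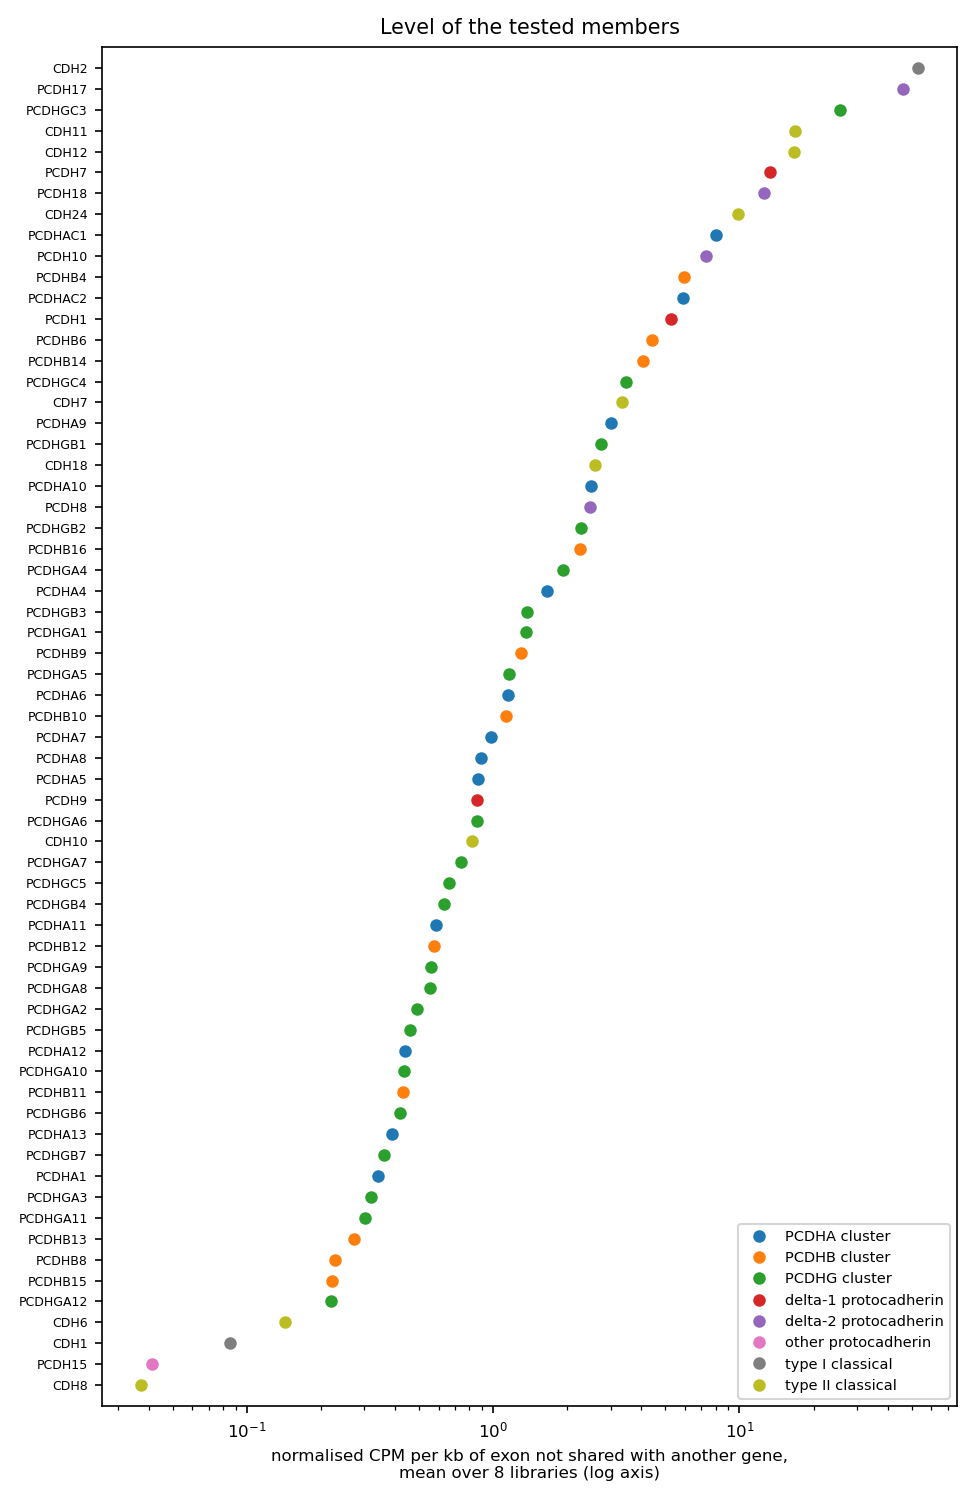
Level of the 64 tested genes as normalised CPM per kilobase of exon not shared with another gene on the same strand, mean over 8 libraries on a log axis, with 1 point per gene coloured by group. CDH2 and PCDH17 stand at the top at 53.1 and 46.1, and CDH1, PCDH15 and CDH8 at the bottom.

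Most calls in E8-cDRGcm were falls and most in E15.5-mSGcm were rises, while in E8-cSGcm rises and falls were nearly even in number. In E8-cSGcm 5 of the 64 tested genes rose and 6 fell, against 4.73% and 3.86% of all 16680 tested genes. In E8-cDRGcm 3 rose and 13 fell, against 9.81% and 10.9%. In E15.5-mSGcm 24 rose and 4 fell, against 6.65% and 7.27%. By adjusted p alone, with no limit on the fold, 7 were higher and 17 lower in E8-cSGcm (16.1% and 15.2% of all genes), 7 and 17 in E8-cDRGcm (24.8% and 24.7%) and 30 and 8 in E15.5-mSGcm (17.8% and 20.0%). The median log2 fold change over the tested genes was -0.35 in E8-cSGcm, -0.28 in E8-cDRGcm and 0.40 in E15.5-mSGcm, where that over all genes was 0.01, 0.01 and -0.02. In all, 40 genes were called in at least 1 medium. PCDH8 rose in all 3 and PCDHB16 fell in all 3, PCDHGA5 fell in both chick media and rose in the mouse medium, and 28 genes were called in a single medium. These are 70.0% of the 40, near the 65.9% among all genes called in at least 1 medium. CDH11, PCDHB14, PCDHB16, PCDHGA1 and PCDHGA5 fell in both chick media, and PCDH8 and CDH8 rose in both. With DESeq2 none of PCDH8, PCDHB16 and PCDHGA5 was called in all 3 media. The counts lean on single libraries: the 24 that rose in E15.5-mSGcm were 14 without control replicate 1 and 14 without E15.5-mSGcm replicate 2, the 6 that fell in E8-cSGcm were 2 without control replicate 2 and 3 without E8-cSGcm replicate 2, and the 3 that rose in E8-cDRGcm were 1 without E8-cDRGcm replicate 2. Calls that held without each library in turn numbered 4 of 11 in E8-cSGcm, 9 of 16 in E8-cDRGcm and 11 of 28 in E15.5-mSGcm.

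Type I cadherins. CDH2 read 455 and 462 CPM in control, 401 and 385 in E8-cSGcm, 490 and 512 in E8-cDRGcm and 479 and 464 in E15.5-mSGcm. Only the E8-cSGcm libraries lay below both controls, by a log2 change of -0.22 (SE 0.05, edgeR adjusted p = 3.44e-04), under the 1.5-fold needed for a call. The log2 change was 0.13 (SE 0.05) in E8-cDRGcm and 0.04 (SE 0.05) in E15.5-mSGcm, and CDH2 was higher in E8-cDRGcm than in E8-cSGcm by 0.35 (SE 0.05, edgeR adjusted p = 3.86e-07), also without a call. CDH1, the epithelial cadherin, had 13 and 7 reads in control, 13 and 7 in E8-cSGcm, 7 and 7 in E8-cDRGcm and 0 and 1 in E15.5-mSGcm. It fell in E15.5-mSGcm (edgeR adjusted p = 0.0128), with 1 read against 20 in control, a depth-scaled ratio of 0.0854 (95% exact interval 0.00206 to 0.534, counting error only). Without control replicate 1 the adjusted p was 0.126, and without E15.5-mSGcm replicate 1 it was 0.12. With DESeq2 the CDH1 fall was not called either, and without independent filtering its DESeq2 adjusted p was 0.208. CDH3, CDH4 and CDH15 were not tested.

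Type II cadherins. The abundant CDH11, known from mesenchymal cells, fell in both chick media. It read 278 and 285 CPM in control, 192 and 183 in E8-cSGcm, 171 and 168 in E8-cDRGcm and 243 and 237 in E15.5-mSGcm. All 6 conditioned libraries lay below both controls, with the mouse medium nearest to them. The log2 change was -0.59 (SE 0.05, edgeR adjusted p = 6.40e-12) in E8-cSGcm and -0.73 (SE 0.05, adjusted p = 4.69e-15) in E8-cDRGcm, and -0.23 (SE 0.05, not called) in E15.5-mSGcm. The E8-cSGcm value sits at the 1.5-fold limit: it was -0.57 without control replicate 2, -0.55 without E8-cSGcm replicate 2 and -0.58 after correction for GC content and length, none of them called.

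CDH12, a neural type II cadherin, went opposite ways in the chick dorsal root and mouse media. Control libraries held 101 and 102 CPM, E8-cSGcm 83.4 and 80.4, E8-cDRGcm 61.1 and 63.2, and E15.5-mSGcm 132 and 129. No 2 groups overlap. It fell in E8-cDRGcm by 0.71 on the log2 scale (SE 0.06, edgeR adjusted p = 1.59e-12), and was at -0.31 (SE 0.06) in E8-cSGcm and 0.36 (SE 0.06) in E15.5-mSGcm without a call. Between E15.5-mSGcm and E8-cDRGcm the difference was 1.07 (SE 0.06, adjusted p = 2.01e-17). CDH18, also neural, held 16.1 and 19.3 CPM in control, 20.3 and 19.7 in E8-cSGcm, 10.7 and 9.89 in E8-cDRGcm and 20.0 and 17.9 in E15.5-mSGcm. The E8-cDRGcm libraries lay below the other 6, at a log2 change of -0.79 (SE 0.12, edgeR adjusted p = 1.43e-06). CDH24 held 44.7 and 44.5 CPM in control, 38.2 and 37.2 in E8-cSGcm, 44.4 and 43.4 in E8-cDRGcm and 21.0 and 23.4 in E15.5-mSGcm. It fell 2.00-fold in E15.5-mSGcm (SE 0.09 on the log2 scale, adjusted p = 3.39e-11). CDH7, at 39.9 to 56.2 CPM, was not called in any medium.

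The scarce type II cadherins gave rises on few reads. CDH10 held 1.76 and 1.91 CPM in control, 5.37 and 3.92 in E8-cSGcm, 2.62 and 3.52 in E8-cDRGcm and 3.84 and 1.14 in E15.5-mSGcm. It rose in E8-cSGcm by 1.32 on the log2 scale (SE 0.31, edgeR adjusted p = 0.0012), and the 2 E15.5-mSGcm libraries lay on either side of control. With DESeq2 without independent filtering this rise was not called (log2 1.33, adjusted p = 0.0557). CDH6, known from the kidney and the neural crest, held 0.535 and 1.25 CPM in control, 1.28 and 2.80 in E8-cSGcm, 1.20 and 0.440 in E8-cDRGcm and 2.56 and 2.86 in E15.5-mSGcm. Both E15.5-mSGcm libraries were above control, and the log2 change was 1.56 there (SE 0.44, adjusted p = 0.00573) and 1.18 in E8-cSGcm (SE 0.43, adjusted p = 0.0348). With DESeq2 neither rise was called (adjusted p = 0.0534 and 0.188). Without control replicate 1 neither held (adjusted p = 0.0775 and 0.275), nor without replicate 2 of the medium (0.0587 and 0.59). CDH8 had 5 reads in control in all, 23 in E8-cSGcm and 19 in E8-cDRGcm, depth-scaled ratios of 4.86 (95% exact interval 1.81 to 16.4) and 3.98 (1.44 to 13.6). Both were called (edgeR adjusted p = 0.0133 and 0.0263). Both calls were lost without control replicate 2, at log2 changes of 1.47 and 1.17. The first was also lost without E8-cSGcm replicate 1 (log2 1.78) and the second without E8-cDRGcm replicate 2 (1.70). With DESeq2 neither CDH8 rise was called, with an adjusted p of 0.175 in E8-cDRGcm.

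**Figure D2:**
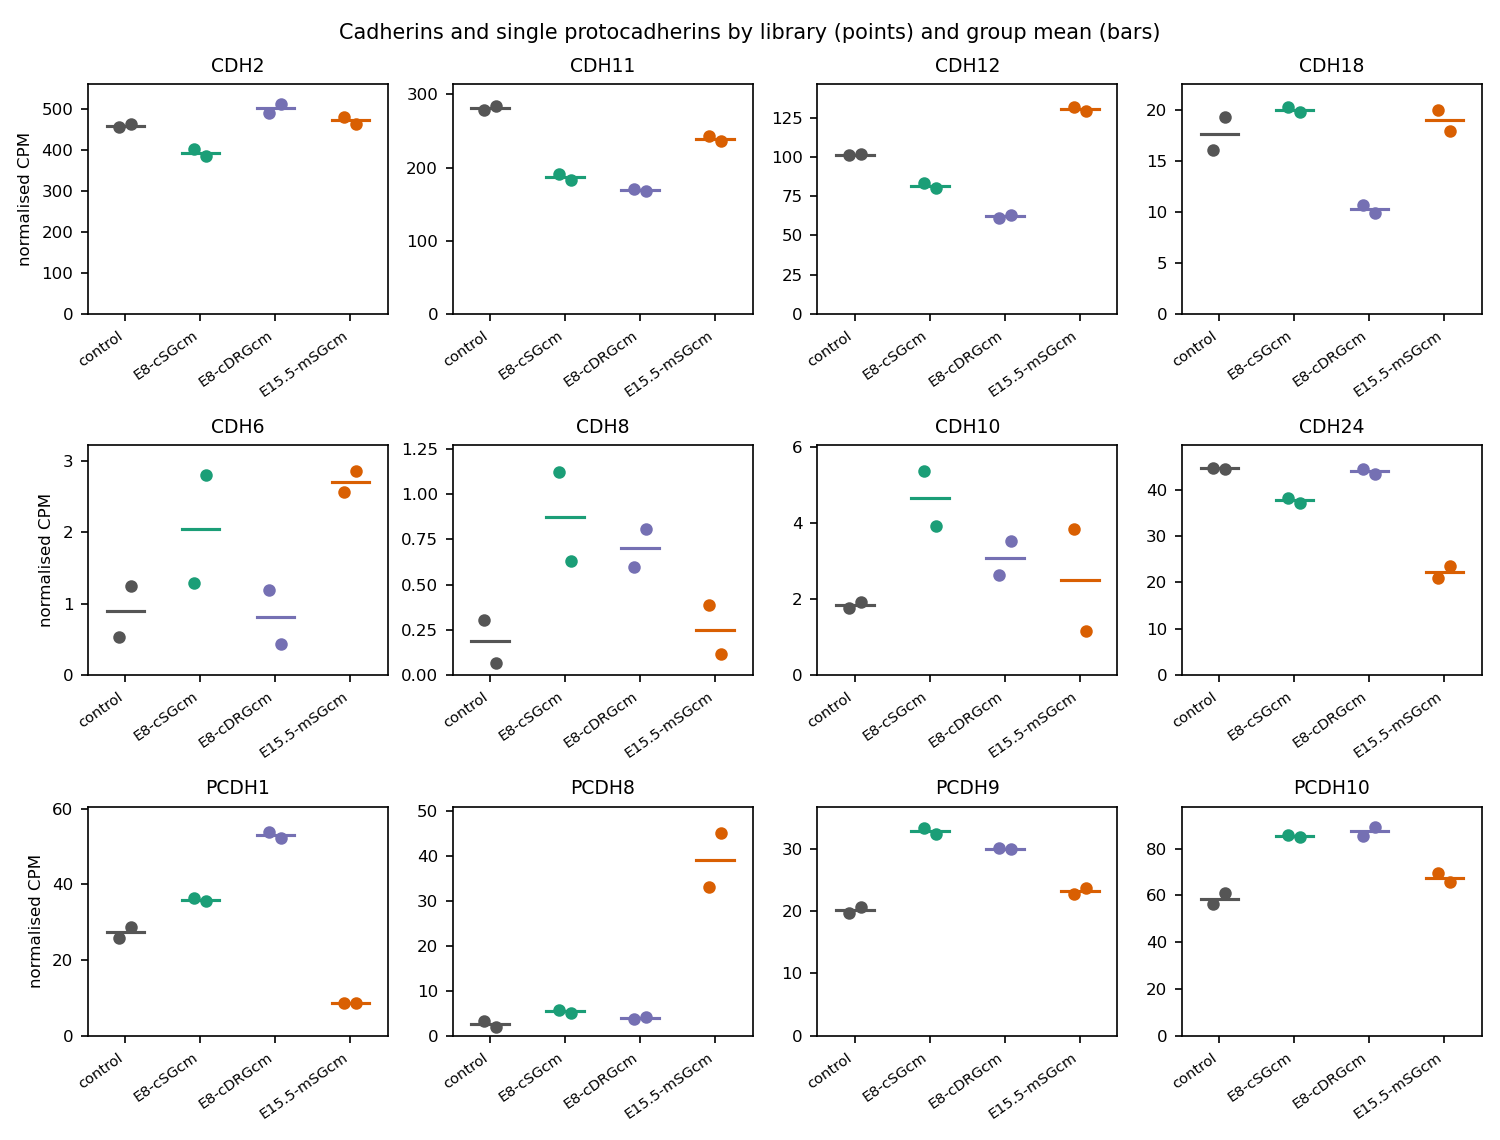
Normalised CPM of 12 cadherins and single protocadherins in the 4 media, with each library a point and the mean of the 2 libraries a bar, each panel on its own axis from 0. CDH11 lies lowest in the chick media, CDH24 and PCDH1 lowest in E15.5-mSGcm, and PCDH8 at 33.1 and 45.0 CPM in E15.5-mSGcm against 1.91 to 5.85 in the other 6 libraries.

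Single protocadherins. PCDH8, the relative of paraxial protocadherin that lowers classical cadherin adhesion at the cell surface, changed most. It held 3.21 and 1.91 CPM in control, 5.85 and 5.18 in E8-cSGcm, 3.81 and 4.18 in E8-cDRGcm and 33.1 and 45.0 in E15.5-mSGcm. All 6 conditioned libraries were above both controls and the mouse medium stood far above the chick media. The rise was 3.96 on the log2 scale in E15.5-mSGcm (SE 0.18, edgeR adjusted p = 3.34e-18), 2.18-fold in E8-cSGcm (SE 0.24, adjusted p = 5.14e-04) and 1.59-fold in E8-cDRGcm (SE 0.26, adjusted p = 0.033). The E8-cDRGcm call alone was lost without control replicate 2 (log2 0.31, adjusted p = 0.424), without E8-cDRGcm replicate 1 (adjusted p = 0.0683) and without E8-cDRGcm replicate 2 (0.153). That call was also lost with DESeq2 (log2 0.66, adjusted p = 0.0727) and with libraries thinned to the smallest total (log2 0.35, edgeR adjusted p = 0.397). E15.5-mSGcm exceeded E8-cSGcm 7.12-fold (edgeR adjusted p = 3.30e-16).

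PCDH1, a delta-1 protocadherin of epithelia and neurons, turned in opposite directions. It held 25.9 and 28.8 CPM in control, 36.5 and 35.5 in E8-cSGcm, 53.8 and 52.3 in E8-cDRGcm and 8.71 and 8.80 in E15.5-mSGcm. The groups do not overlap. It rose 1.94-fold in E8-cDRGcm (log2 SE 0.08, edgeR adjusted p = 1.87e-12) and fell 3.13-fold in E15.5-mSGcm (SE 0.12, adjusted p = 1.56e-13), a 6.05-fold gap between these media. PCDH9, also delta-1, rose in E8-cSGcm from 19.6 and 20.7 to 33.4 and 32.4 CPM (log2 0.70, SE 0.09, adjusted p = 1.15e-07). It held 30.1 and 29.9 CPM in E8-cDRGcm, where its log2 change of 0.57 (SE 0.09) missed the fold limit, and 22.7 and 23.6 in E15.5-mSGcm.

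The most abundant single protocadherins moved less. PCDH17 read 362 and 381 CPM in control, 330 and 310 in E8-cSGcm, 359 and 369 in E8-cDRGcm and 478 and 504 in E15.5-mSGcm. Its log2 change of 0.40 (SE 0.05) in E15.5-mSGcm was not called against control, while E15.5-mSGcm exceeded E8-cSGcm by 0.62 (SE 0.05, edgeR adjusted p = 6.36e-13), which was. PCDH10, a delta-2 gene, had log2 changes of 0.54 (SE 0.06) in E8-cSGcm, 0.57 (SE 0.06) in E8-cDRGcm and 0.20 (SE 0.07) in E15.5-mSGcm, all short of a call. PCDH7 lay between -0.28 and -0.07 and PCDH18 between -0.36 and 0.15 over the 3 media, with no call.

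The PCDHG cluster. Alternate PCDHG genes rose together in the mouse medium and lay below control in the chick media. In E15.5-mSGcm 15 of 22 PCDHG genes rose (68.2%, beside 6.65% of all genes), none fell, all 22 had a log2 change above 0 and the median was 0.85. In E8-cSGcm 3 fell (13.6%, beside 3.86% of all genes), none rose, 21 lay below 0 and the median was -0.53. In E8-cDRGcm 5 fell (22.7%, beside 10.9% of all genes), none rose, 20 lay below 0 and the median was -0.50. The 15 that rose were all PCDHGA or PCDHGB genes (15 of 19, median log2 change 1.15), and none of the 3 PCDHGC genes was called there (median 0.12). Of the 15, 13 lay below 0 in both chick media.

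Summed over PCDHGA and PCDHGB, control held 53.6 and 52.7 CPM, E8-cSGcm 39.4 and 34.7, E8-cDRGcm 36.9 and 35.4 and E15.5-mSGcm 84.4 and 105. The groups mean 53.1, 37.1, 36.1 and 94.8 CPM (SD 0.654, 3.39, 1.05 and 14.6, n = 2), a difference from the control mean of 78.3% in the mouse medium and of -30.3% and -32.0% in E8-cSGcm and E8-cDRGcm. Summed PCDHGC, of which PCDHGC3 is most, held 99.7 and 102 CPM in control, 88.8 and 87.2 in E8-cSGcm, 79.9 and 81.3 in E8-cDRGcm and 108 and 112 in E15.5-mSGcm. The mouse-medium mean stood 8.84% above control for PCDHGC. PCDHGC3, the most abundant clustered gene, read 86.4 and 87.2 CPM in control, 78.4 and 78.7 in E8-cSGcm, 73.1 and 74.5 in E8-cDRGcm and 91.9 and 96.4 in E15.5-mSGcm, and was not called. PCDHGC4 read 10.6 and 13.3 CPM in control and 5.16 and 5.13 in E8-cDRGcm, where it fell by 1.22 on the log2 scale (SE 0.16, edgeR adjusted p = 7.27e-08).

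**Figure D3:**
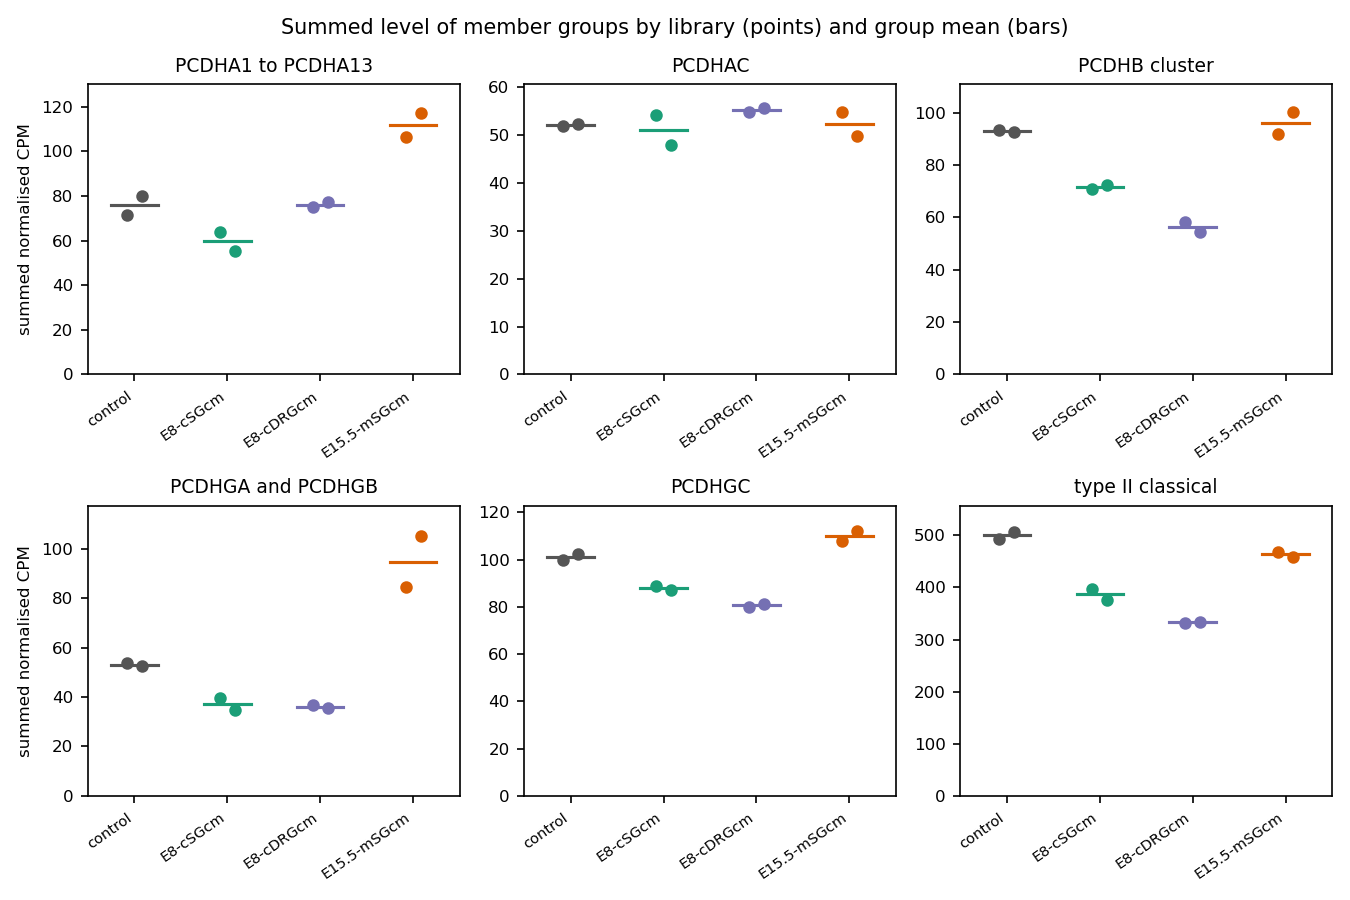
Summed normalised CPM of 6 groups of genes in the 4 media, each library a point and the mean of 2 libraries a bar, each panel on its own axis from 0. PCDHGA and PCDHGB sum to 84.4 and 105 in E15.5-mSGcm against 52.7 and 53.6 in control, PCDHAC sums run from 48.0 to 55.7 over all libraries, and PCDHB and type II sums are lowest in E8-cDRGcm.

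PCDHGB2 had the lowest adjusted p of the 15. It read 5.05 and 5.13 CPM in control, 3.61 and 3.43 in E8-cSGcm, 4.71 and 3.52 in E8-cDRGcm and 8.33 and 14.1 in E15.5-mSGcm. Both mouse-medium libraries exceeded the other 6, and the rise was 2.22-fold (log2 1.15, SE 0.20, edgeR adjusted p = 2.41e-05). PCDHGB6 went from 1.53 and 1.51 CPM to 4.10 and 4.34 (log2 1.47, SE 0.31, adjusted p = 2.84e-04). PCDHGB4 went from 0.841 and 0.986 CPM to 2.95 and 2.86 (log2 1.65, SE 0.38, adjusted p = 5.82e-04), and was also above 0, without a call, in both chick media. Log2 changes of the other genes that rose ran from 0.65 in PCDHGA5 to 1.73 in PCDHGA12: PCDHGA3, PCDHGA4, PCDHGA6, PCDHGA7, PCDHGA8, PCDHGA9, PCDHGA10, PCDHGA11, PCDHGB3 and PCDHGB7 lay between. The other PCDHGA and PCDHGB genes (PCDHGA1, PCDHGA2, PCDHGB1 and PCDHGB5) had log2 changes of 0.29 to 0.72 there and were not called.

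In the chick media the calls fell on PCDHGA1 and PCDHGA5 in both, on PCDHGB3 in E8-cSGcm, and on PCDHGA4, PCDHGA6 and PCDHGC4 in E8-cDRGcm. PCDHGA1 read 7.19 and 5.92 CPM in control, 3.45 and 4.62 in E8-cSGcm, 3.14 and 3.59 in E8-cDRGcm and 7.94 and 8.80 in E15.5-mSGcm. All 4 chick-medium libraries lay below both controls, with log2 changes of -0.68 (SE 0.20, edgeR adjusted p = 0.00779) and -0.95 (SE 0.21, adjusted p = 1.96e-04). PCDHGA5 read 4.36 and 4.60 CPM in control, 3.29 and 2.38 in E8-cSGcm, 2.17 and 2.64 in E8-cDRGcm and 6.15 and 7.88 in E15.5-mSGcm. It fell by 0.67 and 0.90 and rose by 0.65 (edgeR adjusted p = 0.025, 0.00207 and 0.0155), with no overlap between control, mouse and chick libraries. The rise was not called with DESeq2 (log2 0.65, adjusted p = 0.164) or with libraries thinned to the smallest total (log2 0.43, edgeR adjusted p = 0.207). It was 0.61 without control replicate 1 and 0.45 without E15.5-mSGcm replicate 2. Of the PCDHG genes, PCDHGA11 and PCDHGC4 alone were called between the 2 chick media.

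These genes carry few reads each, and counts of them depend on the fit. The 15 that rose in E15.5-mSGcm were 8 without E15.5-mSGcm replicate 2, 10 without control replicate 1, 11 without control replicate 2, 12 without E15.5-mSGcm replicate 1, 6 with DESeq2, which gave PCDHGA12 no adjusted p, and 3 (PCDHGB2, PCDHGB4 and PCDHGB6) with DESeq2 without independent filtering, while the median stayed between 0.74 and 0.98 under all alternatives. PCDHGA4, PCDHGA8, PCDHGB2, PCDHGB3, PCDHGB4 and PCDHGB6 were called without each library in turn, but PCDHGB3 was lost with DESeq2 (adjusted p = 0.0619), and PCDHGA4 and PCDHGA8 were lost when its independent filtering was off (0.0862 and 0.0832). None of the 3 PCDHG calls in E8-cSGcm held without each library, nor with DESeq2. Of the 5 in E8-cDRGcm, PCDHGA4 was lost without control replicate 2 (edgeR adjusted p = 0.192), without E8-cDRGcm replicate 1 (0.143) and with DESeq2 (0.142), and PCDHGA6 was lost without control replicate 2 (0.0618). With every library thinned to 7930765 reads 11 PCDHG genes rose, and after correction for GC content and length 15 did. Reads in the constant exons cannot be assigned to 1 gene, and in total RNA reads of unspliced transcripts that run over downstream variable exons are counted for those genes.

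The PCDHA cluster. Alternate PCDHA genes also rose in the mouse medium. In E15.5-mSGcm 7 of 13 tested PCDHA genes rose (53.8%, beside 6.65% of all genes), none fell and the median log2 change was 0.62. None was called in either chick medium, where medians were -0.37 in E8-cSGcm and 0.00 in E8-cDRGcm. Summed over PCDHA1 to PCDHA13, control held 71.4 and 80.2 CPM, E8-cSGcm 64.0 and 55.5, E8-cDRGcm 75.0 and 77.2 and E15.5-mSGcm 107 and 117. The mouse-medium libraries lay above all others. PCDHAC1 and PCDHAC2 together held 51.8 and 52.3 CPM in control and 54.8 and 49.8 in E15.5-mSGcm, on either side of control.

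PCDHA13, the last alternate gene before the C-type exons, read 0.612 and 0.395 CPM in control, 0.641 and 0.210 in E8-cSGcm, 0.598 and 1.10 in E8-cDRGcm and 2.05 and 2.40 in E15.5-mSGcm. It rose 4.43-fold (log2 2.15, SE 0.49, edgeR adjusted p = 5.91e-04). PCDHA12 went from 0.688 and 0.855 CPM to 2.18 and 2.28 (log2 1.51, SE 0.42, adjusted p = 0.00387). PCDHA4, one of the 3 most abundant alternate PCDHA genes, read 14.0 and 17.3 CPM in control, 13.1 and 11.3 in E8-cSGcm, 16.5 and 17.7 in E8-cDRGcm and 24.5 and 25.5 in E15.5-mSGcm (log2 0.67, SE 0.12, adjusted p = 2.28e-05). PCDHA5, PCDHA6, PCDHA8 and PCDHA11 rose by 0.62, 1.10, 1.20 and 0.86. PCDHA12 and PCDHA13 alone kept their calls without each library in turn, and PCDHA12 was lost with DESeq2 (adjusted p = 0.0695). Of the 7 rises DESeq2 kept 4 (PCDHA4, PCDHA6, PCDHA8 and PCDHA13), and 2 (PCDHA4 and PCDHA13) without independent filtering. Without control replicate 1 PCDHA4, PCDHA5, PCDHA8 and PCDHA11 lost theirs, and without E15.5-mSGcm replicate 2 PCDHA5, PCDHA6 and PCDHA11 did. Without E15.5-mSGcm replicate 1 PCDHA5 and PCDHA11 lost theirs, and PCDHA5 also did without either E8-cDRGcm library. PCDHA4, PCDHA5 and PCDHA11 also lost theirs after correction for GC content and length.

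The PCDHB cluster. The PCDHB genes were lowest in the dorsal root medium. In E8-cDRGcm 5 of 11 tested PCDHB genes fell (45.5%, beside 10.9% of all genes), all 11 lay below 0 and the median log2 change was -0.73. In E8-cSGcm 2 fell (18.2%, beside 3.86% of all genes) and the median was -0.42. In E15.5-mSGcm 1 fell (9.09%, near the 7.27% of all genes) and the median was 0.09. The level summed over all 16 PCDHB genes was 93.5 and 92.8 CPM in control, 70.9 and 72.5 in E8-cSGcm, 58.3 and 54.5 in E8-cDRGcm and 92.0 and 100.3 in E15.5-mSGcm. Chick-medium sums lay below control, with differences of the means of -23.1% and -39.5% and no overlap between any of the 3, and the mouse-medium sums lay on either side of control.

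PCDHB14 read 20.6 and 21.4 CPM in control, 13.6 and 14.3 in E8-cSGcm, 7.10 and 8.13 in E8-cDRGcm and 24.7 and 28.4 in E15.5-mSGcm. The groups do not overlap. It fell by 1.46 on the log2 scale in E8-cDRGcm (SE 0.12, edgeR adjusted p = 2.06e-12) and by 0.59 in E8-cSGcm (SE 0.11, adjusted p = 7.10e-05). The second value is at the fold limit, and was -0.56 without control replicate 2 and -0.55 without E8-cSGcm replicate 1, neither called. PCDHB16 read 11.2 and 13.1 CPM in control, 6.90 and 6.65 in E8-cSGcm, 5.16 and 6.81 in E8-cDRGcm and 8.84 and 7.31 in E15.5-mSGcm, so all 6 conditioned libraries lay below control. It fell by 0.85, 1.02 and 0.60 (SE 0.16, 0.16 and 0.17), and its call in E15.5-mSGcm was lost without control replicate 2 (adjusted p = 0.0649) and without E15.5-mSGcm replicate 2 (0.103). The PCDHB16 call in E15.5-mSGcm was also lost with DESeq2 (adjusted p = 0.074) and with libraries thinned to the smallest total (log2 -0.45, edgeR adjusted p = 0.101). PCDHB6, PCDHB9 and PCDHB12 fell in E8-cDRGcm by 0.73, 0.78 and 0.81. Without E8-cDRGcm replicate 2 none of these 3 was called, with log2 changes of -0.56, -0.63 and -0.69, and PCDHB12 was also lost without control replicate 2 (adjusted p = 0.147) and without E8-cDRGcm replicate 1 (0.059). Since PCDHB genes are near-identical copies in places, reads between them are uncertain.

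Media against each other. More genes were called between the mouse medium and either chick medium than between the chick media. Between E15.5-mSGcm and E8-cSGcm 34 of the 64 genes were higher and 5 lower in the mouse medium, against 10.2% and 12.1% of all tested genes. Between E15.5-mSGcm and E8-cDRGcm 33 were higher and 4 lower, against 13.1% in each direction. Between the chick media 2 were higher and 5 lower in E8-cDRGcm, against 2.62% and 4.87%. By adjusted p alone the counts were 39 and 8 (23.9% and 25.9% of all genes), 41 and 8 (25.8% and 26.8%) and 9 and 9 (2456 and 2581 of 16680 genes). All 19 PCDHGA and PCDHGB genes were higher in E15.5-mSGcm than in E8-cSGcm and 18 of 19 than in E8-cDRGcm, with medians of 1.5 and 1.45 on the log2 scale. PCDHAC2, named after its values were seen, was lower in the mouse medium than in E8-cSGcm and E8-cDRGcm, at log2 differences of -0.62 and -0.76. The 33 were 21 without E15.5-mSGcm replicate 2. The 5 that were lower than in E8-cSGcm were 2 without E8-cSGcm replicate 1 and 3 without E15.5-mSGcm replicate 2. Between the chick media the 2 higher genes were 0 or 1 without any 1 of their 4 libraries, and the 5 lower ones were 3 without replicate 2 of either medium.

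Partners and regulators. Of 83 genes in lists of catenins, desmosomal and atypical cadherins, cleavage enzymes, repressors of cadherin genes, factors of protocadherin promoter choice and protocadherin partners, 67 were tested. In E8-cSGcm 2 rose and 5 fell, in E8-cDRGcm 7 rose and 7 fell, and in E15.5-mSGcm 4 rose and 7 fell, which are 2.99% and 7.46%, 10.4% and 10.4%, and 5.97% and 10.4% of the 67. Among all tested genes the shares were 4.73% and 3.86%, 9.81% and 10.9%, and 6.65% and 7.27%. By adjusted p alone, 11 were higher and 11 lower in E8-cSGcm (16.4% each, beside 16.1% and 15.2% of all genes), 30 and 16 in E8-cDRGcm (44.8% and 23.9%, beside 24.8% and 24.7%) and 13 and 20 in E15.5-mSGcm (19.4% and 29.9%, beside 17.8% and 20.0%). Median log2 changes were 0.03, 0.14 and -0.02. The 4 that rose in E15.5-mSGcm were 2 without control replicate 1, the 5 that fell in E8-cSGcm were 3 without E8-cSGcm replicate 2, and the 2 that rose there were 1 without control replicate 1 or E8-cSGcm replicate 1.

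Catenins. CTNNA1, which ties cadherin complexes to actin, read 194 and 198 CPM in control, 274 and 271 in E8-cSGcm, 461 and 461 in E8-cDRGcm and 205 and 199 in E15.5-mSGcm. It rose in E8-cDRGcm by 1.23 on the log2 scale (SE 0.05, edgeR adjusted p = 3.91e-22) and was at 0.48 (SE 0.05, not called) in E8-cSGcm. Its neural relative CTNNA2 rose by 0.66 in E8-cDRGcm. CTNNB1 (beta-catenin), with changes of -0.34, -0.48 and 0.27, and CTNND1 (p120), with 0.10, 0.50 and 0.21, were not called. ARVCF, a p120 relative, fell by 0.75 in E8-cDRGcm and by 1.11 in E15.5-mSGcm, JUP (plakoglobin) fell by 0.66 in E15.5-mSGcm, and the plakophilin PKP1 fell by 1.34 in E8-cSGcm and 2.41 in E8-cDRGcm at 0.220 to 2.04 CPM over all libraries.

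Other cadherin-repeat genes and enzymes. The desmosomal cadherin DSG2 rose by 0.63 in E8-cDRGcm and fell by 0.87 in E15.5-mSGcm. The giant cadherin FAT3 rose by 0.62 in E8-cSGcm and 1.34 in E8-cDRGcm, and CDHR1 rose by 0.99 in E8-cDRGcm. FAT1 rose by 0.59 in E15.5-mSGcm (SE 0.14, edgeR adjusted p = 0.0246), at the 1.5-fold limit. In E8-cDRGcm FAT1 was at 0.51 (SE 0.13, not called). Of the synaptic calsyntenins, CLSTN2 fell by 0.82 in E8-cSGcm and 0.92 in E8-cDRGcm and CLSTN3 rose by 0.60 in E8-cDRGcm. RET, a receptor kinase with cadherin-like repeats, fell by 0.83 in E15.5-mSGcm, from 427 and 400 to 222 and 242 CPM. Of the gamma-secretase subunits, PSENEN rose by 0.75 and APH1B fell by 0.82 in E8-cDRGcm. The Wnt receptor FZD5 fell in all 3 media, by 0.92, 0.82 and 0.74, and CYFIP2, of the actin-regulating WAVE complex, rose by 0.66 in E15.5-mSGcm.

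Repressors and promoter choice. SNAI2, a repressor of E-cadherin, read 7.65 and 7.83 CPM in control, 14.0 and 14.3 in E8-cSGcm, 9.87 and 9.45 in E8-cDRGcm and 15.8 and 17.4 in E15.5-mSGcm. It rose in E8-cSGcm (log2 0.87, SE 0.13, edgeR adjusted p = 2.93e-06) and E15.5-mSGcm (1.10, SE 0.14, adjusted p = 7.15e-08). Its relative SNAI1 fell by 0.94 in E15.5-mSGcm, and ZEB1 was not called (0.03, 0.41 and 0.44). Among 12 factors that act on protocadherin promoters, the cohesin subunit STAG1 was called in all 3 media. It read 53.4 and 57.2 CPM in control, 34.9 and 34.3 in E8-cSGcm, 31.5 and 30.6 in E8-cDRGcm and 91.9 and 95.6 in E15.5-mSGcm, lower in the chick media (log2 -0.68 and -0.83) and higher in the mouse medium (0.76), with SE of 0.07 to 0.08 and no overlap between control, chick and mouse. CTCF, which binds these promoters with cohesin, was not called (-0.29, -0.12 and 0.21). SMCHD1, a chromatin repressor of the clusters, fell by 0.59 and 0.61 in the chick media (SE 0.06 each), both near the 1.5-fold limit. It was at -0.02 in E15.5-mSGcm. The DNA methyltransferase DNMT3B fell by 1.31 in E15.5-mSGcm. No relation between these genes and the clusters was tested.

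**Figure D4:**
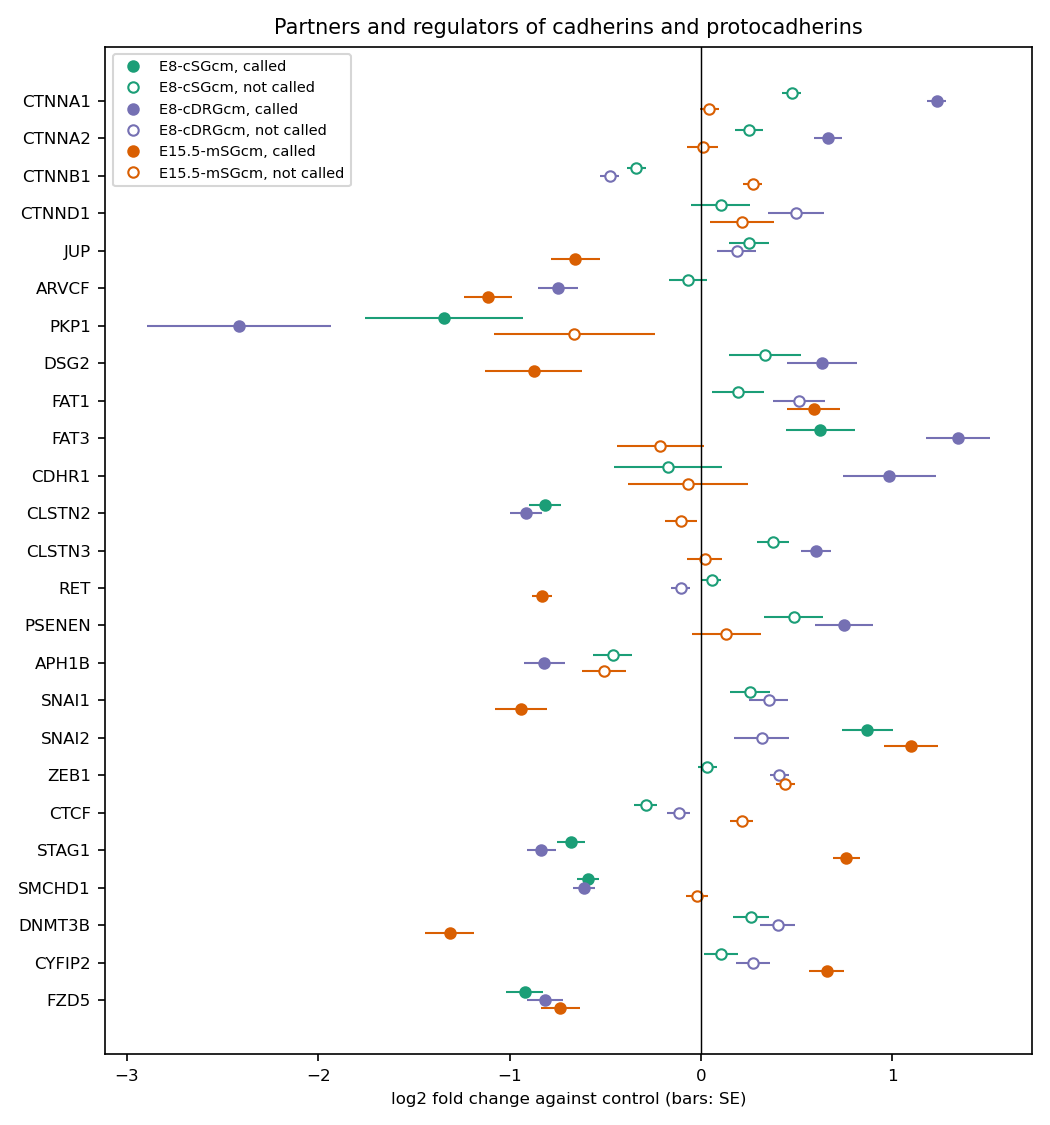
Log2 fold change against control (edgeR, bars: SE) of the 25 genes of the lists that were called in at least 1 medium, or were to be shown whatever their values (CTNNB1, CTNND1, CTCF and ZEB1), in 3 media, with filled points for called genes. STAG1 lies at -0.68 and -0.83 in the chick media and 0.76 in E15.5-mSGcm, and CTNNA1 at 1.23 in E8-cDRGcm.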

How the data were processed

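RNA of IGR-N91 aggregates was made into stranded total RNA libraries and sequenced as 75 bp single reads. The deposited values are raw counts of reads per Ensembl gene, made by the authors with TopHat2 2.1.0 and HTSeq 0.11.3 after cutadapt 1.9.1, with versions from the submitters' processing notes. Those notes name hg38 and the study's methods name hg19, and the strand option of the counting is not given in the sources used here. Levels per kilobase rest on exon that no other gene shares on the same strand, so they may depend on that option.

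From these counts, 16680 genes that passed edgeR's filterByExpr were tested over all 8 libraries with edgeR 4.0.16 (TMM, quasi-likelihood test, R 4.3.3) and Benjamini-Hochberg adjustment. Calls required both a 1.5-fold difference and, after adjustment, p below 0.05. SE is the absolute log2 change over the square root of F. Levels are CPM on TMM-scaled library sizes. Exon lengths came from an hg19-based annotation, which matched 58611 of 60676 rows. Symbols on chromosomes X and Y and non-coding symbols were left out (3 and 13). Intervals and the floor of 3 reads cover counting error only. The fit was tested on simulated data.

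Named genes were those called in at least 1 medium against control, the 10 with the highest mean CPM, CDH1, CDH2, CDH3, CDH5, CDH6, CDH11 and CDH13 and, of the partner lists, called genes and CTNNB1, CTNNA1, CTNND1, CTCF, SNAI2 and ZEB1. Members, lists and tests were chosen with earlier results of these data known. Alternatives were DESeq2 1.42.0, other size factors and filters, thinning, correction for GC content and length, a replicate block, fits of only the groups compared and leaving out each library. DESeq2 without independent filtering was added after the data were seen.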

Additional observations from a re-analysis of the deposited data

Results flagged for a closer look

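Of the 40 genes called against control, 35 also differed between 2 conditioned media by a called contrast of edgeR's quasi-likelihood test. The log2 difference given is that of the contrast with the lowest adjusted p of the 3 between media, so it is the best of 3. The 35 are 87.5% of the 40, beside 76.6% of the 5127 genes of the whole table called against control.

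Between E15.5-mSGcm and E8-cSGcm, the PCDHA genes differed by 1.03 (PCDHA4), 1.02 (PCDHA5), 1.49 (PCDHA6), 1.03 (PCDHA8), 1.29 (PCDHA11), 1.57 (PCDHA12) and 2.41 (PCDHA13). The PCDHG genes differed by 1.78 (PCDHGA3), 1.5 (PCDHGA7), 2.85 (PCDHGA11), 1.68 (PCDHGB2), 1.56 (PCDHGB3), 1.36 (PCDHGB4) and 2.00 (PCDHGB7). CDH1 differed by -3.43 and CDH10 by -0.92, both on few reads.

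Between E15.5-mSGcm and E8-cDRGcm, the PCDHG genes differed by 1.31 (PCDHGA1), 1.45 (PCDHGA4), 1.55 (PCDHGA5), 1.57 (PCDHGA6), 1.51 (PCDHGA8), 2.06 (PCDHGA9), 1.89 (PCDHGA10), 2.65 (PCDHGA12), 2.24 (PCDHGB6) and 1.39 (PCDHGC4). PCDHB genes differed by 1.80 (PCDHB14), 0.73 (PCDHB6) and 0.81 (PCDHB9). PCDH8 differed by 3.29 and PCDH1 by -2.60, the largest of the single protocadherins in each direction among these values. CDH6 differed by 1.73, CDH12 by 1.07 and CDH24 by -0.98.

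Between the chick media, CDH18 was lower in E8-cDRGcm, with a log2 difference of -0.96. In these contrasts every PCDHA, PCDHB and PCDHG gene listed was higher in the mouse medium.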

How the results depend on the processing

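No call of a named gene turned direction. Of 2893 values for named genes under the alternatives, 2602 kept their direction and side of the threshold, 165 lost a call and 45 gained one. The other 81 changed direction and were called in neither fit. Genes that rose or fell with each alternative follow, as counts against the main ones, and their causes were not tested. In E8-cSGcm the 5 that rose were 3 with DESeq2, 2 with DESeq2 without independent filtering, 3 when every library had to hold 10 counts, 3 after thinning and 4 to 5 without each library. The 6 that fell were 3 with DESeq2 with or without independent filtering, 3 with upper quartile size factors, 3 with library totals alone, 3 with a filter at 1 count, 17 by adjusted p alone and 2 to 7 without each library. In E8-cDRGcm the 3 that rose were 1 with either DESeq2 fit, 1 after thinning, 7 by adjusted p alone and 1 to 4 without each library, and the 13 that fell were 8 with DESeq2 without independent filtering and 10 to 14 without each library. In E15.5-mSGcm the 24 that rose were 11 with DESeq2, 6 without independent filtering, 15 under that filter and 14 to 24 without each library, and the 4 that fell were 2 with either DESeq2 fit, 2 after thinning, 8 by adjusted p alone and 3 to 4 without each library. Between the chick media the 2 higher genes were 0 with either DESeq2 fit, 1 under that filter, 1 after thinning, 1 with only the groups compared, 9 by adjusted p alone and 0 to 2 without each library, and the 5 lower ones 2, 2 after thinning, 9 and 3 to 5. Between E15.5-mSGcm and E8-cSGcm the 34 higher genes were 25 to 33 without each library, and the 5 lower ones 3 with either DESeq2 fit, 3 after thinning, 8 by adjusted p alone and 2 to 6. Between E15.5-mSGcm and E8-cDRGcm the 33 higher genes were 18 with DESeq2 without independent filtering and 21 to 33 without each library, and the 4 lower ones 8 by adjusted p alone and 3 to 5. Of the partner lists, adjusted p alone gave 11 and 11 in E8-cSGcm, 30 and 16 in E8-cDRGcm and 13 and 20 in E15.5-mSGcm. DESeq2 or thinning left 1 of the 2 that rose in E8-cSGcm. Without each library the counts were 1 to 2 and 3 to 6, 6 to 8 and 6 to 7, and 2 to 5 and 6 to 7.

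The replicate numbers are not known to pair the libraries. With the replicate number as a block, the counts were 5 and 6, 3 and 13, and 23 and 4 against control, and 2 and 5, 33 and 5, and 33 and 4 between media. PCDHGB3 in E8-cSGcm and PCDHA5 in E15.5-mSGcm lost their calls.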

Other observations

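Pseudogenes that lie among the PCDHG variable exons were also counted. PCDHGB8P had 3 and 11 reads in control and 10 and 16 in E15.5-mSGcm (log2 1.65, edgeR adjusted p = 0.0195), and PCDHGB9P had a log2 change of 1.73 (adjusted p = 0.0445). They were named after their values were seen, and reads of unspliced transcripts that cross the interval would count for them as for the coding genes, which was not tested.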
